A study of Mus musculus with 17 samples.

Results

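Galectins are lectins that bind beta-galactoside sugars on glycoproteins and glycolipids. 6 genes of this family and its binding glycoprotein were followed in mouse hearts 5d after myocardial infarction (MI), namely Lgals1, Lgals3, Lgals4, Lgals8 and Lgals9, which encode galectins, and Lgals3bp, which encodes a secreted glycoprotein that galectins bind. They were chosen by name out of 31647 gene features in the heart count table, and each of them had counts in every library.

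The hearts came from male wild-type C57BL/6J mice aged 8 to 11 weeks. The left anterior descending (LAD) coronary artery was tied off permanently in 9 of them, and the infarct zone (IZ) was dissected 5 days later, while 8 sham mice had the operation without the ligation and gave left ventricular (LV) tissue at the same time. All mice received isoflurane and buprenorphine, and the 9 IZ mice were a random choice from those ligated. RNA was read from its 3′ end (MACE, massive analysis of cDNA ends), with 1 library per mouse. A count therefore comes from a transcript end and was not divided by gene length. The comparison sets dissected IZ against LV tissue rather than the same region, and in bulk tissue fewer cells of a type and less RNA per cell cannot be told apart.

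Galectins lack a signal peptide and leave cells by a route outside the classical secretory pathway. Outside cells they cross-link glycosylated receptors and matrix, and inside cells several of them recognise sugars exposed on broken endosomes and lysosomes. In the injured heart galectin-3, a product of activated macrophages, is known as a marker of inflammation, fibrosis and heart failure.

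All 6 genes lie in protein-coding loci of the mm10 (GRCm38) genome. Lgals1 (ENSMUSG00000068220) is on the plus strand of chr15:78926725-78930465 and Lgals3 (ENSMUSG00000050335) on the plus strand of chr14:47367751-47386160. Lgals3bp (ENSMUSG00000033880) lies on the minus strand of chr11:118392751-118402092, and Lgals9 (ENSMUSG00000001123) on the same strand of that chromosome at chr11:78962974-78984946. Lgals4 (ENSMUSG00000053964) occupies the plus strand of chr7:28833854-28841708. Lgals8 (ENSMUSG00000057554) occupies the minus strand of chr13:12439415-12464944 and overlaps Heatr1 on the other strand, whose reads cannot be told apart without a stated strand setting.

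Promoters of 3 genes are shown. Lgals9 holds letters of an interferon element and Lgals3bp those of a variant with a wider gap. The pattern of Lgals9 was also nearest to that of Irf7, and Lgals4 was the member that fell. Sequences are from RefSeq on GRCm38.p6, 5′ to 3′ on the gene's strand. The capitals in Lgals9 mark a match to the core of an interferon-stimulated response element (GAAA, any 2 bases and GAAA, here read on the opposite strand). In Lgals3bp they mark a variant with a wider gap (GAAA, any 3 bases and GAAA), and in Lgals4 a CCAAT box.
Lgals9, chr11:78984925-78985174, minus strand, 250 bases before the start: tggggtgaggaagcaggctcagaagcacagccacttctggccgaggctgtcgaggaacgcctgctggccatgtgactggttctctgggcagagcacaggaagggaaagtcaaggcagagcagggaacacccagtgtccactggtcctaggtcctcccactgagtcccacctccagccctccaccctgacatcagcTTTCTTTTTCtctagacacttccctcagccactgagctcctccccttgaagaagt
Lgals3bp, chr11:118401962-118401991, minus strand, 30 bases around the match: tgtcatgtgttttctGAAAATCGAAActag
Lgals4, chr7:28833544-28833793, plus strand, 250 bases before the start: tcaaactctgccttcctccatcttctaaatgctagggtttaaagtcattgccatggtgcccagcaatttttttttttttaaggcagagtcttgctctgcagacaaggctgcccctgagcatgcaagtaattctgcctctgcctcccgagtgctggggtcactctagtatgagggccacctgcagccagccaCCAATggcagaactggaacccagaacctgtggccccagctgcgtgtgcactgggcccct

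The match in Lgals9 began 55 bases before the RefSeq start and that in Lgals3bp 17 bases before it. The GENCODE annotation, however, places all 30 bases shown for Lgals3bp inside an exon of that gene, whose GENCODE start lies further upstream, and 22 of the 250 bases shown for Lgals9 inside an exon. Of 32851 mouse promoters searched on both strands over the same 250 bases, 2.98% held the element with 2 bases between, 2.38% the one with 3 bases between and 5.20% either. CCAAT began 59 bases before the Lgals4 start and occurred in 33.9% of promoters. It also occurred in the promoters of Lgals8 (2 matches) and Lgals3 (1 match), which both rose, but not in those of Lgals9 and Lgals3bp. The box therefore did not set Lgals4 apart from the members that rose. These motifs were chosen after the sequences were seen, and a match is a description of letters, not a measured binding site. 5 of the 6 genes had a promoter entry.

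Total counts ranged from 1820809 to 4257919 in sham LV and from 1237675 to 4738307 in IZ, values are given as CPM (counts scaled to library size, with TMM factors), and 12301 features had enough counts to be tested by edgeR's quasi-likelihood test. Cardiac identity was checked on 10 cardiomyocyte genes, which summed to 78054 to 92720 CPM in sham LV. IZ replicate 1 stood apart, with 33750 CPM of these cardiomyocyte genes against 3349 to 7876 in the other 8 IZ libraries, a mitochondrial share of 19.5% against 4.22% to 6.78%, and 2458 CPM of 11 macrophage markers against 4440 to 6670. Selected results below are therefore given with and without it.

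Between IZ and sham LV, 5 of the 6 genes were higher and 1 was lower, all past an adjusted p of 0.05 (edgeR, Benjamini-Hochberg over all tested genes). Of all tested genes 69.5% passed, 36.3% higher and 33.1% lower in IZ, so a passed test was common in these hearts. Lgals3 and Lgals4 were at the ends of that scale: only 14 of the 12301 tested genes had a higher log2 fold change than Lgals3, and only 42 had a lower one than Lgals4. The median over all tested genes was 0.05.

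**Figure D1:**
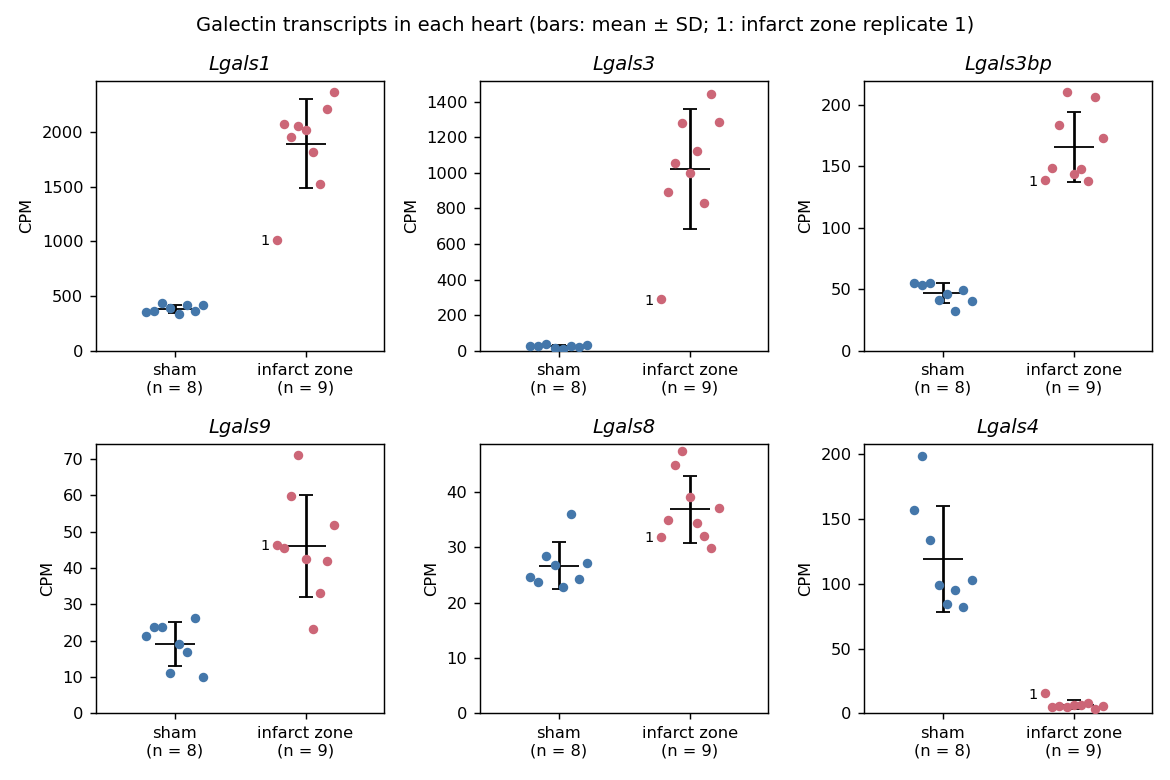
Level of the 6 genes in CPM (vertical axes, linear, each from 0) in every heart, with 8 sham LV and 9 IZ libraries as points and the mean ± SD as bars. The 9 IZ points lay above all sham points for Lgals1, Lgals3 and Lgals3bp, below them for Lgals4, and partly among them for Lgals8 and Lgals9.

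Lgals3 encodes the chimera-type galectin, which joins a carbohydrate recognition domain to a self-associating tail. Its level was 7.25 CPM in the lowest sham library, 26.7 at the median and 36.4 in the highest, and in IZ it was 290, 1053 and 1444 CPM. No library of one group reached the other group, and the lowest IZ value was that of replicate 1. The means were 24.1 ± 9.02 CPM (SD, n = 8) and 1023 ± 339 CPM (SD, n = 9), a 42.4-fold difference, with a log2 fold change of 5.42 ± 0.32 (SE) and an edgeR adjusted p of 2.13e-12. Sham values rested on 14 to 55 counts per library, so the fold is less precise at its sham end. Without IZ replicate 1 the IZ mean was 1114 ± 212 CPM and the log2 fold change 5.52.

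Lgals1 encodes the prototype galectin, a small protein that works as a dimer and dampens T cell responses. Its level was 332 CPM in the lowest sham library, 379 at the median and 433 in the highest, against 1015, 2021 and 2365 CPM in IZ. Every IZ library again exceeded every sham library, and replicate 1 was the lowest of the IZ. The mean rose from 385 ± 37.0 CPM (SD, n = 8) to 1894 ± 405 CPM (SD, n = 9), a 4.93-fold difference with a log2 fold change of 2.30 ± 0.17 (SE) and an edgeR adjusted p of 4.84e-11.

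Lgals3bp encodes the galectin-3-binding protein, a scavenger receptor cysteine-rich glycoprotein found in plasma and matrix and known to be induced by interferon. Sham libraries held 32.3 CPM at the lowest, 47.7 at the median and 55.4 at the highest, and IZ libraries 138, 149 and 210 CPM. The groups did not overlap. The means of 46.7 ± 8.27 CPM (SD, n = 8) and 165 ± 28.7 CPM (SD, n = 9) differed 3.54-fold, with a log2 fold change of 1.82 ± 0.13 (SE) and an edgeR adjusted p of 4.65e-11. Every IZ library lay above every sham library for these 3 genes, Lgals1, Lgals3 and Lgals3bp, a separation that 16.6% of all tested genes showed.

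Lgals9 and Lgals8 encode tandem-repeat galectins, which carry a pair of different carbohydrate recognition domains in 1 chain. Galectin-9 is a ligand of the checkpoint receptor Tim-3, and it is among the heart-derived ligands that the study inferred from these same hearts, so its rise here is not independent evidence. Lgals9 was at 9.998 CPM in the lowest sham library, 20.2 at the median and 26.2 in the highest, and at 23.2, 45.4 and 71.1 CPM in IZ. IZ replicate 6 was the single IZ library within the sham range. The mean went from 19.0 ± 5.97 CPM (SD, n = 8) to 46.1 ± 14.0 CPM (SD, n = 9), and the log2 fold change was 1.29 ± 0.21 (SE) with an edgeR adjusted p of 8.06e-06.

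Galectin-8 is known to mark damaged vesicles and to recruit an autophagy receptor to them. The level of Lgals8 was 22.8 CPM in the lowest sham library, 25.7 at the median and 36.0 in the highest, and 29.9, 34.9 and 47.5 CPM in IZ. The groups overlapped, with 4 of 9 IZ libraries above all sham libraries and the other 5 inside the sham range. Its change was the smallest of the 6 in size, from 26.7 ± 4.22 CPM (SD, n = 8) to 36.9 ± 6.02 CPM (SD, n = 9), and the log2 fold change was 0.48 ± 0.12 (SE) with an edgeR adjusted p of 0.00138.

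Lgals4 encodes a tandem-repeat galectin known from the epithelium of the gut. In sham LV it was at 82.4 CPM in the lowest library, 101 at the median and 198 in the highest, and it dropped to 3.10, 5.44 and 15.6 CPM in IZ. All 9 IZ libraries were below all sham libraries, as in 16.5% of tested genes, and the highest IZ value was that of replicate 1. The mean was 119 ± 40.9 CPM (SD, n = 8) in sham LV and 6.65 ± 3.61 CPM (SD, n = 9) in IZ, which was 17.9-fold lower. The log2 fold change was -4.19 ± 0.24 (SE) with an edgeR adjusted p of 1.97e-12, and it was -4.47 without IZ replicate 1.

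Among sham hearts Lgals4 was uneven, since replicates 2, 1 and 3 held 198, 157 and 134 CPM whereas the other 5 held 82.4 to 103 CPM. Epithelial markers were nearly absent from those hearts, summing to 0.518 to 5.55 CPM in sham LV and 3.80 to 27.6 CPM in IZ. Epcam, Cdh1 and Cdh17 had no count in any sham library. Krt8, Krt18, Krt19, Vil1 and Cldn7 had at most 2, 4, 4, 2 and 3 counts there. The 1 gene tested, Krt18, was higher, but it was tested because of its IZ counts and could hardly come out lower. Cardiomyocyte markers moved the same way as Lgals4 between the groups. All 10 were lower in IZ, against 33.1% of all tested genes, with a median log2 fold change of -3.62. The part of cardiomyocyte content in the Lgals4 change was not tested.

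**Figure D2:**
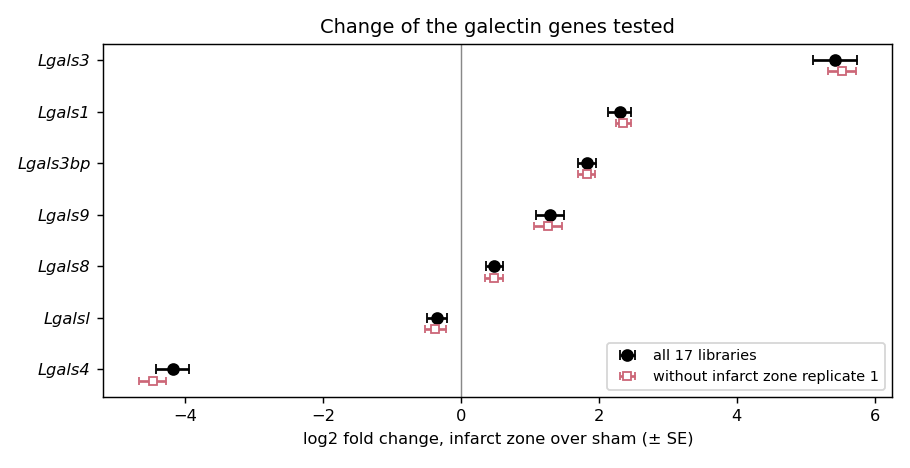
Log2 fold change of IZ over sham LV with its SE (horizontal axis) for the 6 genes and for Lgalsl, in all 17 libraries (black) and without IZ replicate 1 (red, open). The values ran from 5.42 for Lgals3 to -4.19 for Lgals4, and leaving out replicate 1 moved no point across 0.

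The order of levels changed with infarction. In sham LV the means descended from Lgals1 (385 CPM) through Lgals4 (119) and Lgals3bp (46.7) to Lgals8 (26.7), Lgals3 (24.1) and Lgals9 (19.0), and the last 3 overlapped in range. In IZ the descent was Lgals1 (1894 CPM), Lgals3 (1023), Lgals3bp (165), Lgals9 (46.1), Lgals8 (36.9) and Lgals4 (6.65), where Lgals9 and Lgals8 overlapped. Lgals1 and Lgals3 overlapped in range over IZ libraries too, although every single library held more Lgals1, at 1.53 to 3.50 counts of Lgals1 per count of Lgals3 against 11.9 to 45.8 in sham LV. Among all 31647 features ranked by mean CPM, Lgals3 stood at place 5320 in sham LV and at 63 in IZ, Lgals1 moved from 315 to 36, and Lgals4 moved from 1091 to 10574.

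Summed over the 6 genes, sham libraries held 620.2 ± 64.7 CPM (SD, n = 8) and IZ libraries 3171 ± 746 CPM (SD, n = 9). Lgals1 supplied the most of that sum in both groups, 62.3 ± 5.52% in sham LV and 60.2 ± 3.58% in IZ. Lgals3 went from 3.80 ± 1.19% to 31.3 ± 5.40% of it, and Lgals4 from 18.9 ± 5.07% to 0.265 ± 0.288%. Lgals8 and Lgals9 supplied smaller parts in IZ although their own levels were higher there, at 4.33 ± 0.683% and 3.09 ± 0.992% in sham LV against 1.23 ± 0.367% and 1.54 ± 0.659%.

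**Figure D3:**
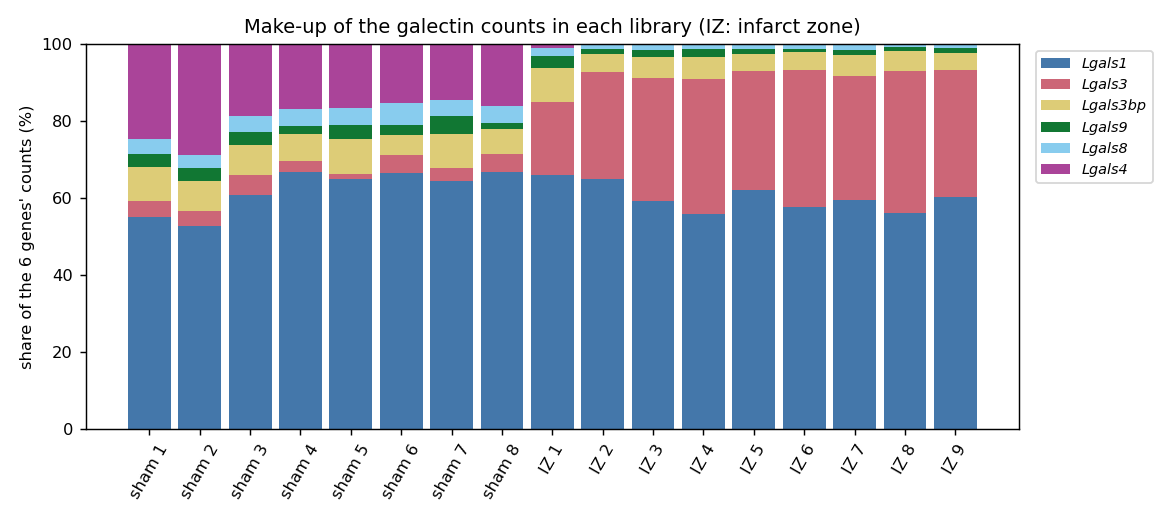
Share of each gene in the counts of the 6 genes (vertical axis, percent) in each of the 8 sham and 9 IZ libraries (stacked bars). Lgals4 (purple) took 18.9% on average in sham LV and 0.265% in IZ, and Lgals3 (red) 3.80% and 31.3%.

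Other genes of the family were also read. Lgalsl, which encodes a galectin-like protein, was at 22.3 ± 4.42 CPM (SD, n = 8) in sham LV and 17.5 ± 3.61 CPM (SD, n = 9) in IZ, a log2 fold change of -0.35 ± 0.15 (SE; edgeR adjusted p = 0.0393) that turned to 0.74 when libraries were scaled by total counts alone. Under the alternatives it was called lower in 12 of 25, called higher in 1, the total-count scaling (edgeR adjusted p = 2.51e-04), and not called in the other 12, so it has no settled direction. The edgeR or DESeq2 adjusted p for the log2 fold change of Lgalsl was between 0.0208 and 0.160 in the settings where that change was below 0, and 5 of 9 IZ libraries were below all sham libraries. Lgals7, known from stratified epithelium, never exceeded 1 count in sham LV and ranged from 0 to 56 counts in IZ, with an IZ mean of 3.15 ± 3.12 CPM, at least 1.76-fold higher than sham LV by a floor of 3 counts per sham library.

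The sugars and receptors that galectins bind were examined with 4 further lists. Of 25 binding partners, 20 had enough counts to be tested, and 17 were higher and 2 lower in IZ. Among all tested genes 36.3% were higher and 33.1% lower. The median log2 fold change of the partners was 1.86 against 0.05 over all tested genes. Some partners were tested because of their IZ counts and could hardly come out lower. In sham libraries Havcr2 had 0 to 3 counts, Spn 0 to 4, Tnfrsf25 0 to 8 and Alcam 4 to 9. The share higher and the median are therefore partly set by the filter. Without IZ replicate 1, 14 partners were higher and 2 lower. Itga6 then no longer passed (edgeR adjusted p = 0.0504), and Spn and Tnfrsf25 were not tested. Fn1, the matrix glycoprotein fibronectin, was at 103 ± 38.8 CPM in sham LV and 1962 ± 430 CPM in IZ, with a log2 fold change of 4.25 ± 0.23 (SE; edgeR adjusted p = 9.94e-13). Trem2, a lipid-sensing receptor of macrophages, rose from 10.3 ± 4.62 to 236 ± 71.4 CPM, with a log2 fold change of 4.56 ± 0.27 (edgeR adjusted p = 2.91e-12), and Pdpn, the mucin-type glycoprotein podoplanin, from 5.08 ± 1.48 to 50.2 ± 14.3 CPM. Trem2 is also 1 of the 11 macrophage markers.

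Receptors of immune cells were among the partners that rose. Ptprc, the leukocyte phosphatase CD45, had a log2 fold change of 2.83 ± 0.21 (SE), the hyaluronan receptor Cd44 2.98 ± 0.19, and Mertk, which takes up dying cells, 2.01 ± 0.26. Havcr2, which encodes the galectin-9 receptor Tim-3, never exceeded 3 counts in sham LV and was at 16.7 ± 3.87 CPM (SD, n = 9) in IZ, at least 9.35-fold higher than sham LV by the same floor. Itgb1, the integrin beta-1 subunit, rose by 0.94 ± 0.11 on the log2 scale.

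Partners of muscle and iron uptake fell. Tfrc, the transferrin receptor, was at 46.5 ± 11.6 CPM in sham LV and 7.81 ± 7.03 CPM in IZ, with a log2 fold change of -2.58 ± 0.30 (SE), and of -3.06 without IZ replicate 1. Itga7, the laminin-binding integrin subunit of muscle, went from 118 ± 18.4 to 47.3 ± 14.5 CPM with a log2 fold change of -1.32 ± 0.15. Nrp1 was the tested partner that did not pass, at a log2 fold change of -0.11 (edgeR adjusted p = 0.533).

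Of 19 genes that build galactose-bearing glycans, 18 were tested, and 15 were higher and 0 lower by edgeR. The gene not tested, B3gnt2, had no count in any library, so its change is unknown. Some of the others were tested because of their IZ counts, such as Gcnt1 with 2 to 9 counts in sham libraries. Among all tested genes 36.3% were higher and 33.1% lower. The median log2 fold change of these glycan builders was 1.07. None was lower at an unadjusted p under 0.05 either, and the DESeq2 Wald test also gave 15 higher and 0 lower. The highest were Gcnt1, which starts core-2 branches, at 2.26 ± 0.24 (SE), and the galactosyltransferases B4galt5 at 1.91 ± 0.18 and B4galt2 at 1.83 ± 0.19. All 8 genes of sialic acid capping were tested, with 3 higher and 2 lower, near the 36.3% and 33.1% of all tested genes, and total-count scaling gave 6 higher and 2 lower. St6gal1, whose alpha-2,6 sialic acid caps block the binding of galectin-1, rose by 1.51 ± 0.18 on the log2 scale, from 6.44 ± 1.97 to 18.7 ± 3.09 CPM. St3gal1 rose by 1.004 ± 0.16 and St3gal2 by 0.44 ± 0.14, whereas St3gal3 had a log2 fold change of -1.997 ± 0.17 and St3gal6 one of -1.55 ± 0.16.

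Genes that answer to damaged lysosomes, where galectin-3, galectin-8 and galectin-9 act inside cells, were a list of 15. Of the 14 tested, 1 was higher and 6 were lower, with a median log2 fold change of -0.20. The share lower was not far from the 33.1% of all tested genes, whereas the share higher was below their 36.3%. Scaling by total counts alone gave 10 higher and 1 lower. Optn, an autophagy receptor, was at 58.3 ± 13.8 CPM in sham LV and 11.4 ± 4.62 CPM in IZ, a log2 fold change of -2.38 ± 0.20 (SE). Ulk1, the kinase that starts autophagy, had -1.17 ± 0.15, which total-count scaling reduced to -0.09 (edgeR adjusted p = 0.563), and Mtor, the growth kinase that galectin-8 is known to restrain, had -0.93 ± 0.11, which the same scaling turned to 0.14. Pdcd6ip, which encodes the membrane-repair adaptor ALIX, was the higher gene at 0.42 ± 0.13 (edgeR adjusted p = 0.00736).

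**Figure D4:**
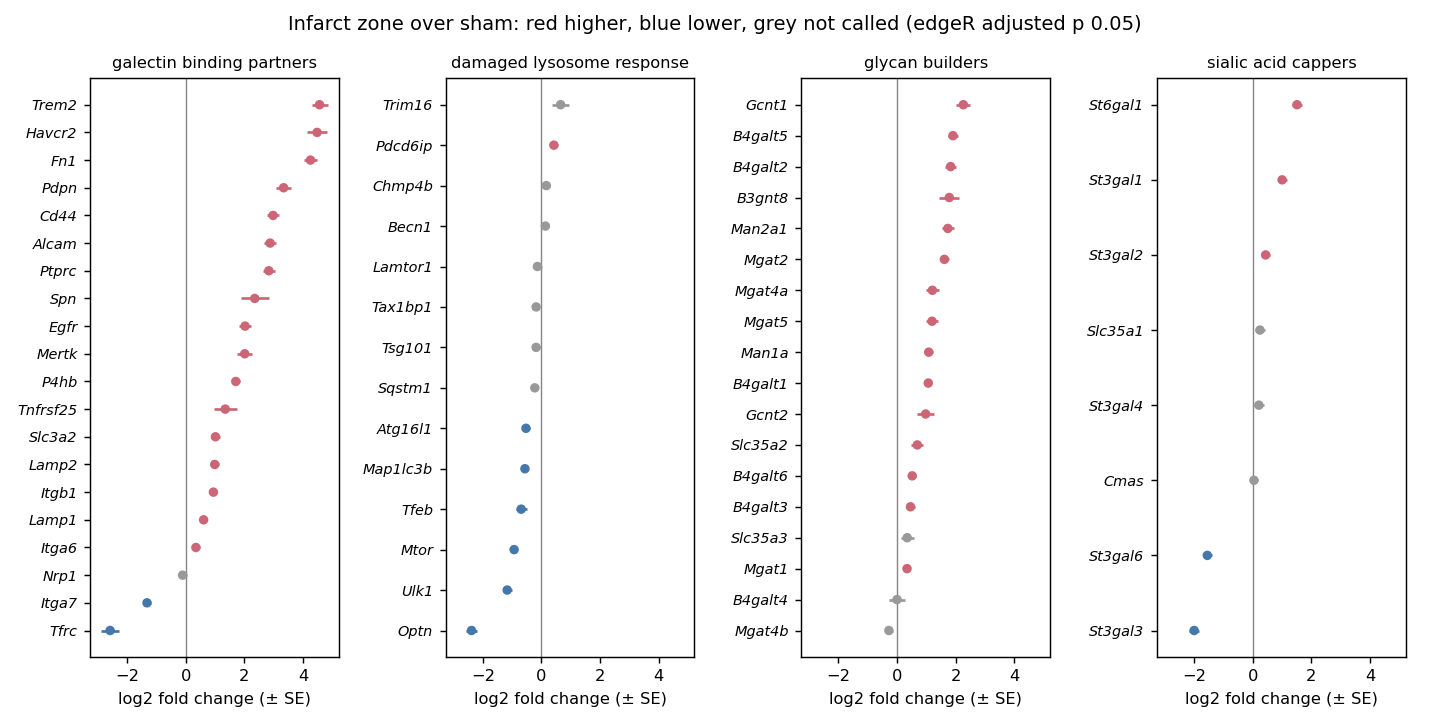
Log2 fold change of IZ over sham LV with its SE (horizontal axes) for each tested gene of the 4 lists, coloured by whether it was higher (red), lower (blue) or not called (grey) at an edgeR adjusted p of 0.05. Binding partners (17 of 20 higher) and glycan builders (15 of 18 higher) lay mostly right of 0, and the damaged lysosome genes (6 of 14 lower) lay around or left of it.

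Marker genes of other cells changed alongside the galectins. Of 11 tested macrophage markers all were higher in IZ (median log2 fold change 3.33), while 36.3% of all tested genes were higher and 33.1% lower. The macrophage markers summed to 432 to 614 CPM in sham LV and 2458 to 6670 CPM in IZ. Fibroblast markers were higher for 9 of 10 and summed to 1632 to 3134 against 13018 to 21071 CPM. Neutrophil markers summed to 5.00 to 12.3 against 15.9 to 220 CPM, and the 4 tested of 7 were higher. Sham libraries held 0 to 3 counts of Csf3r, 0 to 2 of Mmp8, 1 to 15 of S100a8 and 1 to 11 of S100a9. These 4 were tested because of their IZ counts, so the filter largely set their direction. Ly6g had no count in sham LV and at most 1 in an IZ library. T and B cell markers stayed low at 2.70 to 4.75 against 9.42 to 25.5 CPM. The 1 gene tested, Cd79b, was higher, but with 0 to 4 counts in sham libraries the same limit holds for it. Cd8a had no count in sham LV and 0 to 18 in IZ libraries.

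For 9 endothelial markers the sums were 521 to 986 and 392 to 649 CPM, with 0 higher (0 also at an unadjusted p under 0.05 in edgeR and by the DESeq2 Wald test) and 4 lower. The share lower was not far from the 33.1% of all tested genes, of which 36.3% were higher. Total-count scaling turned the endothelial counts to 7 higher and 1 lower. Mesothelial markers summed to 7.81 to 20.4 and 10.5 to 134 CPM, with 1 of 2 tested higher, namely Msln with 0 to 9 counts in sham libraries. The part of these cells in the galectin changes was not tested.

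Because Lgals3 and macrophage markers both differed between IZ hearts, their levels were set side by side within the 9 IZ libraries, as 1 of 25 relations computed between the marker means of macrophages, fibroblasts and cardiomyocytes and the 5 galectin genes with at least 10 counts, or among those genes. Lgals3 followed the mean log2 CPM of 11 macrophage markers closely, with Pearson's r = 0.996 (exact permutation p adjusted over the 25 relations, 1.38e-04) and Spearman's rho = 0.983 (exact permutation, adjusted p = 0.00124). Without the 2 libraries farthest from the median r was 0.976, and without IZ replicate 1 it was 0.972 (exact permutation, adjusted p = 0.00124).

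Lgals1 followed the macrophage markers with r = 0.932 (exact permutation, adjusted p = 0.0307) and rho = 0.70 (exact permutation, adjusted p = 0.210). Without the 2 farthest libraries r was 0.65, and without IZ replicate 1 it was 0.66 (exact permutation, adjusted p = 0.273). With those libraries left out the relation stayed positive but did not pass. The same held for Lgals1 and Lgals3, where r = 0.937 (exact permutation, adjusted p = 0.0307) and rho = 0.75 (exact permutation, adjusted p = 0.159) became r = 0.46 without the 2 farthest and r = 0.69 without replicate 1. For Lgals3bp and the macrophage markers r was 0.61 (exact permutation, adjusted p = 0.229) and rho 0.85 (exact permutation, adjusted p = 0.0759). Neither passed, and without IZ replicate 1 r was 0.79 (exact permutation, adjusted p = 0.155), above the 0.66 of Lgals1. For Lgals9 and the macrophage markers r was 0.02. No relation with fibroblast or cardiomyocyte markers passed. Lgals3 and the cardiomyocyte markers had r = -0.78 (exact permutation, adjusted p = 0.229), which was 0.34 without replicate 1. All values of a library share its scaling factor.

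**Figure D5:**
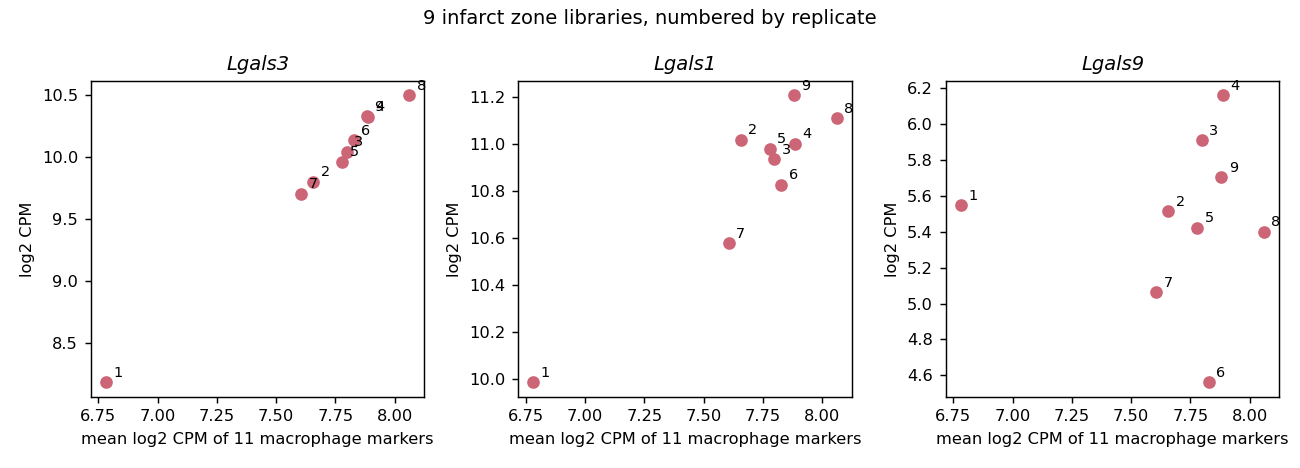
Log2 CPM of Lgals3, Lgals1 and Lgals9 (vertical axes) against the mean log2 CPM of 11 macrophage markers (horizontal axes) in the 9 IZ libraries, numbered by replicate. Lgals3 lies near a line (r = 0.996), Lgals1 does so less without replicate 1 (r = 0.932 with it, 0.66 without) and Lgals9 shows no such order (r = 0.02).

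The genes whose pattern over the 17 libraries was most like each member were found among 9329 genes as those with the smallest root mean square difference of mean-centred log2 CPM, which is a description. For Lgals3 they were Gpnmb (difference 0.278), a glycoprotein of lipid-laden macrophages that is also 1 of the macrophage markers above, the membrane protease Adam8 (0.422) and the macrophage membrane protein Ms4a6d (0.514). Gpnmb and Adam8 had log2 fold changes of 5.63 and 5.58 beside the 5.42 of Lgals3. Because the measure spans both groups, genes near a member have similar fold changes by selection. For Lgals1 they were Cyba (0.150), the p22phox subunit of the NADPH oxidase, the pseudogene Cd63-ps (0.177), whose reads may be those of Cd63, and the antioxidant enzyme Gpx1 (0.195).

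For Lgals4 the nearest were Eci1 (0.416), an enzyme of fatty acid oxidation, Fitm2 (0.417), which takes part in lipid droplet formation, and Idh2 (0.453), the mitochondrial isocitrate dehydrogenase. These had log2 fold changes of -3.71, -3.64 and -3.74 beside the -4.19 of Lgals4. Lgals9 was nearest to Irf7 (0.262), a transcription factor of the interferon response that had a log2 fold change of 1.25, then to the collagen galactosyltransferase Colgalt1 (0.293) and the calcium sensor Hpcal1 (0.303). For Lgals3bp the nearest were Shisa5 (0.181), Rtn4 (0.203) and the tropomyosin Tpm3 (0.216), and for Lgals8 they were Hmgb1 (0.145), Rpl35a-ps4 (0.148) and Gm7600 (0.185), the second a pseudogene whose reads are uncertain.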

How the data were processed

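RNA from 8 sham LV and 9 IZ samples, each from its own mouse, was sequenced by MACE with unique molecular identifiers. The authors trimmed reads with Cutadapt, mapped them to mm10 and deposited raw counts per gene from HTSeq, and the submitters' processing notes also name bcl2fastq, Bowtie2 and DESeq2. The annotation release and the strand setting are not given in the sources used here. The paper does not say whether reads sharing an identifier were merged before counting. From the deposited counts, features were filtered with edgeR's filterByExpr (minimum count 10), scaled by TMM (factors 0.613 to 1.54) and tested with edgeR 4.0.16 in R 4.3.3 (glmQLFit, glmQLFTest, both groups in 1 fit without a replicate block), with Benjamini-Hochberg adjustment over 12301 features and a threshold of 0.05. CPM on a log2 scale had a prior count of 1. The fits were checked on simulated counts. A fold against sham libraries with at most 3 counts is a lower bound, computed from a floor of 3 counts per library. Correlations used exact permutation over 362880 pairings (SciPy 1.17.1). Gene positions came from GENCODE on GRCm38, and no galectin had another transcript alike over at least 100 bases at 95% identity within its last 500 bases (BLAST 2.17.0). Counts depend on depth, so genes with few counts are less precise than others.

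The members and lists were chosen with earlier results of these data known. Named were all members, other family genes with a count, the 3 highest and 3 lowest called genes of each list with a mean of at least 10 CPM, a few partner receptors fixed by name (Havcr2, Mertk, Ptprc, Cd44, Itgb1), and the 3 genes most like each member. Nrp1, the endothelial flip and the marker and list genes with few or no counts were named after their values were seen. Alternatives were DESeq2 1.42.0 (size factors and Wald test), upper quartile and total-count scaling, no filter, a mean of at least 50 counts, leaving out mitochondrial features, a replicate block, a prior count of 5 and leaving out each library. Same-numbered sham and IZ libraries come from different mice. Lgals6 and the markers Itgam and Tff3 were not analysed here.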

Additional observations from a re-analysis of the deposited data

Results flagged for a closer look

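In 18 groups of values examined, 4 held a library far from its group, and chance alone gives about 1 in 20 groups. Lgals3 in sham replicate 5 was at 2.93 on the log2 CPM scale, while the other sham libraries were between 4.14 and 5.20. In IZ replicate 1 Lgals3 was at 8.18 against 9.70 to 10.5 in the other IZ libraries. The same library had a mean of 6.78 log2 CPM over the macrophage markers against 7.61 to 8.06 in the others, and of 11.4 over the cardiomyocyte markers against 7.96 to 9.25.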

How the results depend on the processing

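All 6 genes passed the test in the same direction in 25 of 25 alternatives. Their log2 fold changes ranged from 5.27 to 6.52 for Lgals3, from 2.25 to 3.40 for Lgals1, from 1.75 to 2.91 for Lgals3bp, from 1.18 to 2.38 for Lgals9, from 0.44 to 1.57 for Lgals8 and from -4.47 to -3.15 for Lgals4. Scaling by total counts moved the median of all tested genes by 1.09 and the higher share of the calls from 52.3% to 85.8%, with 10727 genes called. Under it Lgalsl had 0.74, Mtor 0.14, the damaged lysosome genes 10 higher and 1 lower, and the sialic acid cappers 6 higher, and 6 relations passed. Upper quartile scaling and testing without a filter moved that median by 0.11 and 0.19. A mean of at least 50 counts gave 5239 calls against 8544 and 1 lower capper. Upper quartile scaling, the DESeq2 Wald test and the replicate block each gave 2 higher damaged lysosome genes.

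Leaving out 1 library gave 1 to 2 higher damaged lysosome genes (2 without sham replicate 5 or 6 or IZ replicate 4, 8 or 9), 0 to 1 lower glycan builders (1 without sham replicate 6 or IZ replicate 1), and 1 to 3 relations past the threshold (1 without IZ replicate 1, 3, 7, 8 or 9, and also 1 without the 2 farthest libraries). With the replicate block over replicates 1 to 8, 7883 genes were called, the 6 genes kept their calls and Lgalsl lost it, where the log2 fold change of Lgalsl was -0.30 (edgeR adjusted p = 0.122). The numbers did not pair the samples: same-numbered libraries correlated at -0.22 to 0.13, 1 of 8 above 0.1, and 1 sham library correlated best with its own number. Depth limited Lgals2, Lgals7, Lgals12 and Grifin, which were not tested, and Lgals3 and Lgals9 in sham LV.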

Other observations

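The 6 genes differed in how evenly they were expressed between hearts. The coefficient of variation of Lgals1 was 9.63% over the 8 sham libraries and 21.4% over the 9 IZ libraries, and without IZ replicate 1 its IZ mean was 2004 ± 252 CPM. Lgals12, known from fat tissue, had no count in any sham library and counts in 3 of 9 IZ libraries, with at most 10 in 1 of them. Lgals2 had 0 to 1 counts in sham libraries and 0 to 8 in IZ libraries, and Grifin 0 to 1 and 0 to 2, so neither can be compared at this depth. Lgals12 and Lgals2 lie at chr19:7596660-7607193 and chr15:78850860-78855529 of mm10.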
